A study of Mus musculus with 90 samples.

Results

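Hypothalamus was compared between resident male mice that had met an intruder and control residents, 120 min after the encounter. The members are the 10 poly(A)-selected RNA-seq libraries that the labels give as hypothalamus at 120 min, 5 intruder and 5 control libraries of a series of 90. All residents were C57BL/6J males that had spent 2 weeks with other males, 1 week alone and 1 week with a C57BL/6J female, which was taken out 3 h before the trial. Intruder residents then had a strange BALB/cJ male, held in a wire mesh cage, placed in their home cage for 5 min. Controls had the same mesh cage with a paper cup inside for 5 min. Both groups then sat in the dark until cervical dislocation, and the hypothalamus was dissected and frozen. The labels give 1 animal per library, numbered 1, 2, 3, 4 and 6 in each group, although the design text also speaks of pooling RNA samples into libraries. The mesh kept the males from touching, and the ages of the animals are not given in the sources used here.

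The hypothalamus sets hormone release, body temperature and social and aggressive behaviour through many small groups of neurons, fed by a dense capillary bed. Brain capillaries are tubes of endothelial cells whose tight junctions and efflux pumps form the blood-brain barrier. Pericytes sit on the capillary wall, and smooth muscle cells with their contractile proteins ring the arterioles and set blood flow.

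Between 40.36 M and 51.51 M reads per library were assigned to genes, and 21059 to 21743 genes had a read. Summed CPM (read counts over the library total scaled by trimmed mean of M-values) of the hypothalamic markers was 972 to 2260 in these libraries, scaled together with the other regions, against 52.4 to 135 in amygdala and 16.4 to 64.7 in frontal cortex at the same time. Several libraries stood apart by markers of neighbouring tissue. Summed CPM of 11 fibroblast markers was 203 in control 2 and 295 in control 3, and 53.3 to 73.4 in the other 8 libraries. Summed CPM of 7 thalamic markers was 423 in control 6, 351 in intruder 3 and 240 in intruder 6, and 81 to 114 in the other 7. Counts of calls are also given without these libraries.

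Of 17676 genes tested, 34 were called at a Benjamini-Hochberg adjusted p below 0.05 in edgeR's quasi-likelihood test, which is 0.192% of the genes. Lower levels in intruder libraries made up 30 of the calls (0.17%), 29 of them without overlap between the groups against 0.883% of all genes, with log2 fold changes of -1.71 to -0.22. Higher levels made up 4 (0.0226%), with log2 fold changes of 0.15 to 0.38. Endothelial, pericyte or smooth muscle markers accounted for 16 of the 30 lower genes. At an unadjusted p below 0.05, 953 genes were higher (5.39%) and 1084 lower (6.13%). The count of 34 came from a fit in which all 28 hypothalamus libraries of 30, 60 and 120 min shared 1 estimate of the spread. Fitted on the 10 libraries alone, edgeR found 0 genes past the threshold, where 1005 had an unadjusted p under 0.05. Without controls 2 and 3, an omission chosen after seeing the data, it called 3, Cd34, Rgs5 and Ly6c1. In that fit 868 genes had an unadjusted p under 0.05.

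**Figure D1:**
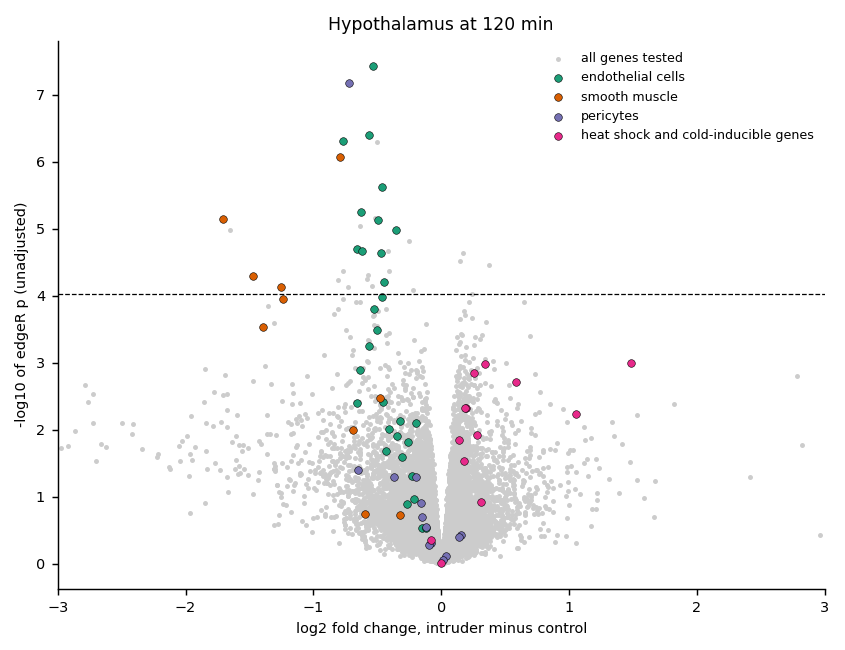
Log2 fold change (intruder minus control, horizontal) against -log10 of the unadjusted edgeR p (vertical) for each gene tested at 120 min, with 4 gene lists coloured. Points above the dashed line are called. Called points lie mostly on the left, with 11 endothelial and 4 smooth muscle genes among the 34, and 7 genes beyond a log2 fold change of 3 in either direction are not drawn.

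Endothelial markers had lower values in intruder libraries. All 30 listed endothelial genes passed the filter on low counts, 11 fell and 0 rose at an adjusted p below 0.05, and 30 of 30 log2 fold changes were negative with a median of -0.46. Over all genes tested the median was 0.0025 and 49% were negative. At an unadjusted p below 0.05 the list had 26 lower genes. Without controls 2 and 3 the median was -0.40 with 30 of 30 negative, but only 2 were called, Cd34 and Ly6c1. In a bulk sample, fewer cells of a type and less RNA per cell cannot be told apart.

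Cd34 (ENSMUSG00000016494), a sialomucin on the surface of endothelial and blood progenitor cells, had the smallest p of all genes. Its level was 9.82, 9.31, 11.01, 10.8 and 11.4 CPM in intruder libraries 1, 2, 3, 4 and 6. In controls 1, 2, 3, 4 and 6 it was 15.03, 15.9, 14.8, 15.1 and 15.01 CPM. Every intruder library lay below every control and below all other 23 hypothalamus libraries, the lowest of which was at 13.7 CPM. The intruder mean was 10.47 ± 0.871 CPM (SD, n = 5) and the control mean 15.2 ± 0.445 CPM (SD, n = 5), 31% lower. On the log2 scale Cd34 fell by 0.54 ± 0.0695 (SE; edgeR adjusted p = 0.000586).

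Pecam1, an adhesion molecule at contacts between endothelial cells, was 7.42, 8.62, 11.6, 11.1 and 12.0 CPM in the intruder libraries and 13.9, 16.2, 14.8, 16.2 and 17.5 CPM in the controls. The groups did not overlap, and its log2 fold change was -0.63 ± 0.111 (SE; edgeR adjusted p = 0.0118). The GPI-anchored proteins of mouse brain endothelium, Ly6c1 and Ly6a, fell by 32.3% and 28.9%, with adjusted p of 0.00177 and 0.0118 in edgeR. Erg, an ETS-family transcription factor that maintains endothelial identity, was 1.46 to 2.89 CPM in intruder libraries and 3.13 to 3.96 CPM in controls, a log2 fold change of -0.66. Ptprb, a receptor phosphatase that acts on the angiopoietin receptor, fell from a control mean of 30.0 to 19.6 CPM, and intruder 1 (12.4 CPM) lay far below the other 4 (20.2 to 23.2 CPM). Itm2a, a membrane protein abundant in brain endothelium, was 36.6 to 42.2 CPM against 46.9 to 67.4 CPM. In each of these 6 genes the intruder libraries lay below all other 23 hypothalamus libraries, as in 0.17% of all genes tested. Leaving out 1 library ended the call of Erg and Itm2a in 3 of 10 fits each and of Ptprb in 1.

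Endothelial genes that did not pass the test still had values on the same side. Tek, the angiopoietin receptor, had a log2 fold change of -0.46 (edgeR adjusted p = 0.0521), Emcn -0.52 (0.0628), Podxl -0.50 (0.094) and Cdh5, the cadherin of endothelial junctions, -0.56 (0.125). In these 4 the intruder and control libraries did not overlap, as in 18 of the 30 endothelial genes. Of all genes tested, 0.883% had the intruder libraries below all controls. Kdr, the main receptor for vascular endothelial growth factor, was at -0.64 with an adjusted p of 0.183 in edgeR, and 2 of its controls, 2 and 3, were at 12.8 and 13.3 CPM against 7.80 to 8.74 CPM in the other 3. The smallest differences were those of Nos3, endothelial nitric oxide synthase, at -0.15, and Mfsd2a, a lipid transporter of barrier endothelium, at -0.12. Leaving out 1 library put Nos3 between -0.26 and -0.03, nearest to 0 without intruder 1, and Mfsd2a between -0.19 and -0.08, nearest to 0 without intruder 2.

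Some of the endothelial genes above are pumps and junction genes of the barrier. Of 23 listed barrier junction and transporter genes, all measured, 4 fell, 0 rose and 19 did not pass, with 21 of 23 negative and a median of -0.23. The 4, Abcb1a, Abcg2, Ocln and Slco1a4, are on the endothelial list too and are counted among its 11 calls. Without controls 2 and 3 the barrier list had 0 called in edgeR, with 21 of 23 negative and a median of -0.18. Abcb1a encodes P-glycoprotein, the pump that expels many drugs from brain capillaries. It was 13.2, 16.7, 23.4, 17.3 and 23.6 CPM in intruder libraries 1, 2, 3, 4 and 6 and 29.1 to 34.7 CPM in controls, and the lowest of all other 23 libraries was 25.6 CPM. Intruder libraries 3 and 6 were the highest of their group, and intruder 1 the lowest. Abcb1a was 41.4% lower in the means, a log2 difference of -0.77 ± 0.116 (SE; edgeR adjusted p = 0.00177).

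Abcg2, another efflux pump, was within 14.04 to 15.4 CPM in the 5 intruder libraries and 18.4 to 24.0 CPM in the controls, 27.4% lower (edgeR adjusted p = 0.00592). Ocln, a tight junction protein, was 7.07 to 8.48 CPM against 8.85 to 10.2 CPM, 21.6% lower, and Slco1a4, an organic anion transporter, was 31.1 to 47.2 CPM against 49.5 to 56.6 CPM, 26.9% lower. Slco1a4 lost its call in 8 of the 10 fits that left out 1 library, and Abcb1a, Abcg2 and Ocln kept theirs in all 10. Not every barrier gene passed. The glucose transporter Slc2a1 was 98.7 to 116 CPM against 120 to 150 CPM without overlap (log2 fold change -0.30, edgeR adjusted p = 0.2). The thiamine transporter Slc19a3 was at -0.50 (0.0863), the thyroid hormone transporter Slco1c1 at -0.28 (0.218) and the junction protein Cldn5 at -0.32 (0.302).

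Among mural cells, the contractile genes of smooth muscle showed the steepest declines. Of 10 smooth muscle genes, all measured, 4 fell, 0 rose, and 10 of 10 were negative with a median log2 fold change of -1.02. Pln, which restrains the calcium pump of the muscle reticulum, was 0.274, 0.450, 0.573, 0.494 and 0.514 CPM in the intruder libraries. Its controls were 0.799, 2.03, 2.02, 1.03 and 1.72 CPM, so the groups did not overlap while the controls spread over a wide range. The log2 fold change of Pln was -1.71 ± 0.306 (SE; edgeR adjusted p = 0.0118), the most negative of the 34 called genes. Tagln, an actin-binding protein of smooth muscle, was 1.68 to 2.68 CPM against 3.97 to 9.47 CPM (log2 fold change -1.47, edgeR adjusted p = 0.034). Acta2, smooth muscle actin, was 3.23 to 4.02 CPM against 5.48 to 11.9 CPM (-1.25, 0.0414).

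Controls 2 and 3, the fibroblast-rich pair, had the highest Tagln and Acta2 of the group, 9.47 and 8.49 CPM for Tagln and 11.9 and 10.7 CPM for Acta2. Without them the smooth muscle median was -0.65, with 10 of 10 negative and 0 called in edgeR. Tagln lost its call in 6 and Acta2 in 8 of the 10 fits that left out 1 library, controls 2 and 3 among them, and neither was called in limma's voom fit, nor was Pln. Myl9, the regulatory light chain of smooth muscle myosin, kept its call in all 10 such fits and lost it without controls 2 and 3 together. It was 6.87, 6.71, 5.38, 7.03 and 5.59 CPM in intruder libraries 1, 2, 3, 4 and 6 and 10.1, 12.8, 12.7, 9.40 and 9.63 CPM in controls. The highest intruder value lay below the lowest of the other 23 libraries, 7.83 CPM, and the log2 fold change was -0.79 ± 0.123 (SE; edgeR adjusted p = 0.00247). Myh11, smooth muscle myosin heavy chain, was at -1.24 with an adjusted p of 0.054 in edgeR.

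Rgs5, which speeds the shut-off of G protein signals and marks pericytes, had the second smallest p. It was 40.2, 46.0, 56.9, 46.5 and 59.3 CPM in intruder libraries and 79.0, 83.6, 74.4, 78.9 and 94.4 CPM in controls. All 5 intruder libraries lay below the lowest of the other 23, 61.8 CPM, and Rgs5 was 39.3% lower in the means (log2 fold change -0.72 ± 0.0967, SE; edgeR adjusted p = 0.000586). The other pericyte markers had smaller differences, among them Anpep at -0.65 and Vtn at -0.37 (edgeR adjusted p of 0.416 and 0.436). Leaving out 1 library put Anpep between -0.80 and -0.29 and Vtn between -0.45 and -0.23. Rgs5 was the only one of 13 pericyte genes to be called, 4 of 13 were positive and the list median was -0.12. Pdgfrb, the growth factor receptor that recruits pericytes, was 12.9 to 19.0 CPM against 17.0 to 20.8 CPM (log2 fold change -0.16), and the potassium channel subunit Abcc9 was at -0.15. Without intruder 1, Pdgfrb was at -0.08 and Abcc9 at -0.05. Summed CPM of the 12 pericyte genes without Rgs5 was 127 to 147 in intruder libraries and 150 to 178 in controls. These did not overlap and were 11.7% lower in the means, and the 18 earlier libraries were at 138 to 194.

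**Figure D2:**
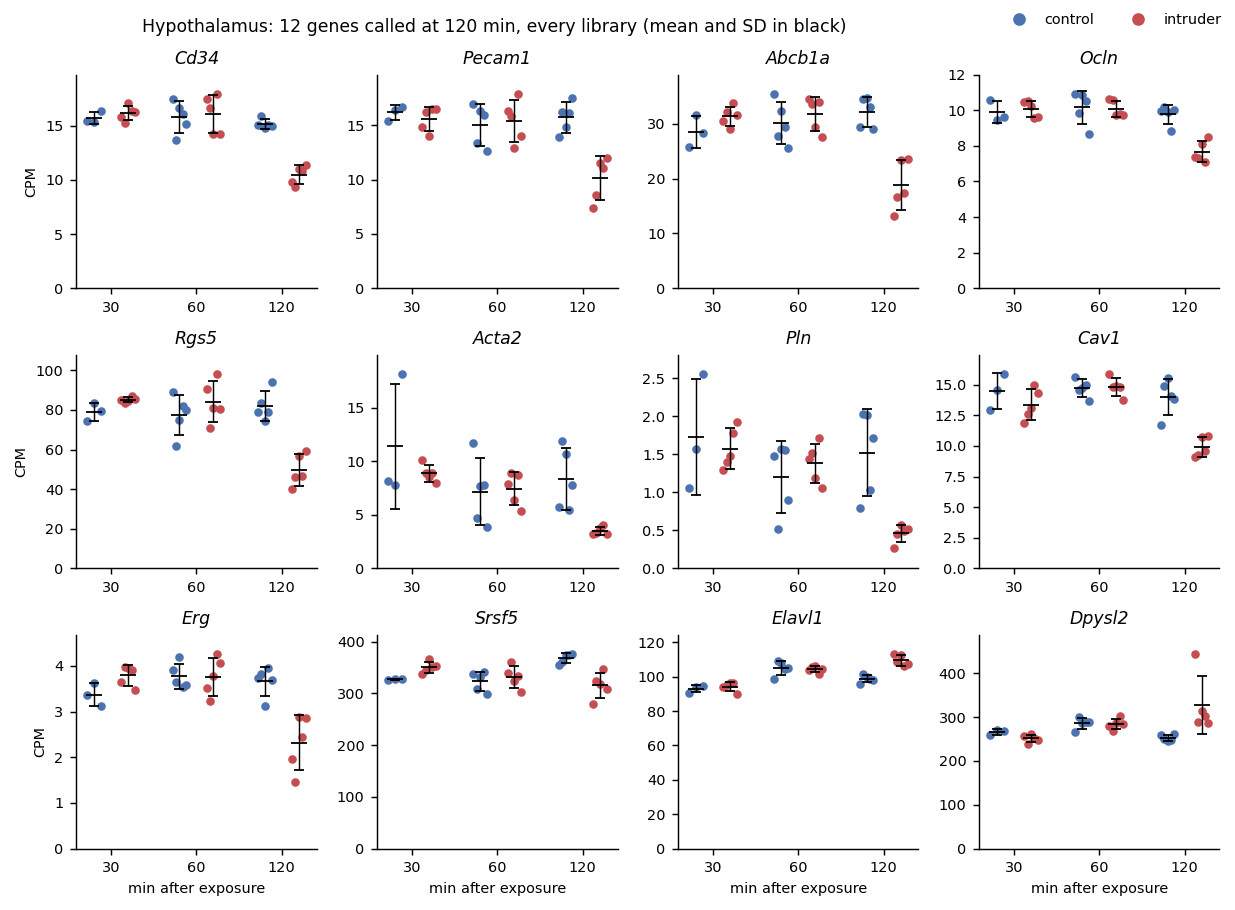
CPM of 12 called genes in all 28 hypothalamus libraries by time after exposure, intruder in red and control in blue, with group mean and SD in black and axes from 0. At 120 min the red points lie below the blue in Cd34, Pecam1, Abcb1a, Ocln, Rgs5, Acta2, Pln, Cav1, Erg and Srsf5 and above them in Elavl1 and Dpysl2, while at 30 and 60 min the colours overlap, except that red lies above blue for Rgs5 and Srsf5 at 30 min.

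To show what lies in front of 3 of these genes, 1 each for endothelium, pericytes and smooth muscle, the 250 bases before the annotated start are given from RefSeq (build GRCm38.p6), on the plus strand at chr1:194938571-194938820 for Cd34, chr1:169655251-169655500 for Rgs5 and chr2:156775214-156775463 for Myl9. Capitals mark an ETS-type match in Cd34, read on the opposite strand 142 to 136 bases before the start, and a CArG box in Myl9, 161 to 152 bases before the start, and Rgs5 had no match to the motifs searched.
Cd34: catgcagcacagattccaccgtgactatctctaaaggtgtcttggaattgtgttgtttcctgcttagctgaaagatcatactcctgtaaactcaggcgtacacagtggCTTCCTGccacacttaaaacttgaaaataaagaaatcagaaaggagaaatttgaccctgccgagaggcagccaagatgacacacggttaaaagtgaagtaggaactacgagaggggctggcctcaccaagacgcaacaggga
Rgs5: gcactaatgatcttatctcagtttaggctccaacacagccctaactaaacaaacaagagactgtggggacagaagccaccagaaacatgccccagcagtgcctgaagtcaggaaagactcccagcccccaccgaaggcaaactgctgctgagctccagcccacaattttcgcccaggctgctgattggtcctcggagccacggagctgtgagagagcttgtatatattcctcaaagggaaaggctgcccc
Myl9: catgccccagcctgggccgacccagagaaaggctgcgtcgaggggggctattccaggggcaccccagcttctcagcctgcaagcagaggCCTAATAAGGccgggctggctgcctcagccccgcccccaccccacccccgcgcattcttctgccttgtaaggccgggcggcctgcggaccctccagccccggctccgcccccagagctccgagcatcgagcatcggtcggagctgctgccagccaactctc

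Of the 33 called genes with a symbol, 24 had a promoter entry of 300 bases, 250 before and 50 after the start, and 22 of these were lower genes. The ETS-type letters CNGGAAG, searched on both strands, occurred in 10 of the 22 (45.5%), against 42.5% of 12553 tested genes with an entry. ETS factors, Erg among them, bind such letters, which are common in promoters. The CArG box, bound by serum response factor in muscle genes, occurred in Myl9 alone, 1 of 22 (4.55%) against 1.64%. The glucocorticoid receptor element occurred in 0 of 22 against 0.462%, and the estrogen-related receptor element in 2 of 22 (9.09%), Clec2d and Sgms1, against 1.01%. These counts describe letters in a short window and say nothing of binding.

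Outside the 3 vascular lists, 14 genes fell. Cav1, caveolin-1, forms the coat of caveolae, the membrane pits abundant in endothelium and muscle. It was 9.09, 9.24, 10.8, 9.61 and 10.8 CPM in intruder libraries and 11.7, 14.9, 15.6, 14.1 and 13.8 CPM in controls (log2 fold change -0.50 ± 0.0756, SE; edgeR adjusted p = 0.00177). All 5 lay below the other 23 libraries. The adhesion G protein-coupled receptors Adgrl4 and Adgrf5, both known from endothelium, fell by 31.4% and 33.3%. In Adgrl4, intruder libraries 3 and 6 at 15.5 and 15.1 CPM came close to the lowest control at 16.3 CPM, and libraries 1, 2 and 4 were at 8.52, 9.93 and 11.3 CPM. Tmem204, a membrane protein of the vessel wall, fell by 24.5%, and the pentaspan membrane protein Prom1 fell from a control mean of 13.5 to 9.38 CPM. Adgrl4, Adgrf5 and Tmem204 each lost their call in 8 of the 10 fits that left out 1 library, while Cav1 and Prom1 kept theirs in all 10. Prom1 lost its call with the index block, the replicate block and the shared index alone, and Cav1 did not.

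Slc40a1, ferroportin, the only known cellular iron exporter, was 5.30 to 6.65 CPM against 6.94 to 9.20 CPM, 25.2% lower, and all 5 values lay under those of the other 23 libraries. Net1, an exchange factor for the GTPase RhoA, fell by 35.6%, and Sgms1, a sphingomyelin synthase, by 15.9%. Olfr558, an odorant receptor gene, was at a very low level, 0.160, 0.172, 0.246, 0.0860 and 0.164 CPM against 0.339 to 0.657 CPM, and fell by 1.65 ± 0.303 (SE) on the log2 scale (edgeR adjusted p = 0.0133). The sulfate transporter gene Slc13a1 was similarly low, 0.297 to 0.493 CPM against 0.531 to 0.782 CPM, and DESeq2 did not call it. Clec2d, a C-type lectin recognised by natural killer cells, was the 1 lower gene whose groups overlapped, since intruder 6 was at 2.43 CPM and control 4 at 2.38 CPM. The transcripts C130074G19Rik and AU021092 fell by 32.7% and 39.6%. Among the 10 fits without 1 library, the call was lost in 8 for Slc13a1 and AU021092, 7 for C130074G19Rik, 6 for Clec2d and 2 for Slc40a1 and Sgms1.

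Srsf5, a splicing factor of the SR family, showed a small decrease. It was 280 to 346 CPM in intruder libraries and 356 to 376 CPM in controls, 14.4% lower (edgeR adjusted p = 0.0443). Its call was lost in 8 of the 10 fits that left out 1 library. It was also lost in 9 of 12 other alternatives, among them the other scalings of library size and the fit without a filter.

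Genes called higher in intruder libraries were 4, each without overlap between the groups against 0.402% of all genes. Dpysl2, which binds tubulin and guides axon growth, was 444, 289, 315, 303 and 286 CPM in intruder libraries 1, 2, 3, 4 and 6 and 246 to 261 CPM in controls. Intruder 1 was far above the rest, and the log2 fold change was 0.38 ± 0.0753 (SE; edgeR adjusted p = 0.0282). Without intruder 1 the log2 fold change of Dpysl2 was 0.24 and the call remained, and it was lost without control 1, 2, 3 or 4. Elavl1, the RNA-binding protein HuR that stabilises messenger RNA, was 106 to 113 CPM against 96.0 to 102 CPM, 10.7% higher (edgeR adjusted p = 0.0255). Elavl1 lost its call in 6 of the 10 fits without 1 library. The zinc finger gene Zfp846 was 16.5 to 19.6 CPM against 14.4 to 15.8 CPM, 18.1% higher, and lost its call in 9 of the 10 fits without 1 library. The gene ENSMUSG00000090739, which had no symbol, was 12.8% higher and lost its call in 3. In none of these 4 did the 5 intruder libraries exceed all other 23 hypothalamus libraries, as they did in 0.00566% of all genes. All 4 lost their call in the fit of the libraries that share an index, with the index as a block and with the replicate block.

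Libraries of 1 group were not equally far from the other group. Of the 30 lower genes, intruder 1 had the lowest intruder value in 15 and intruder 2 in 9, while intruder 3 had the highest in 14 and intruder 6 in 11. Summed CPM of the 30 endothelial genes was 355, 359, 451, 404 and 444 in intruder libraries 1, 2, 3, 4 and 6. It was 523 to 574 in controls and 465 to 621 in the 18 earlier libraries, 25.7% lower in the mean of the intruder group than in that of the controls. The intruder libraries that came closest to the controls, 3 and 6, were the 2 with high thalamic sums. Without them and control 6, also chosen after seeing the data, edgeR called 45 genes, with 14 of 30 endothelial genes among them and a list median of -0.59. Of the 34 genes, 27 were called in that fit, and Tagln, Acta2, Srsf5, Slc13a1, Elavl1, Zfp846 and ENSMUSG00000090739 were not. Smooth muscle genes then had 2 of 10 called and a median of -0.99. Intruder 1 had the lowest share of reads without a feature, 10.05%, against 11.63% to 12.6% in the other 9.

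**Figure D3:**
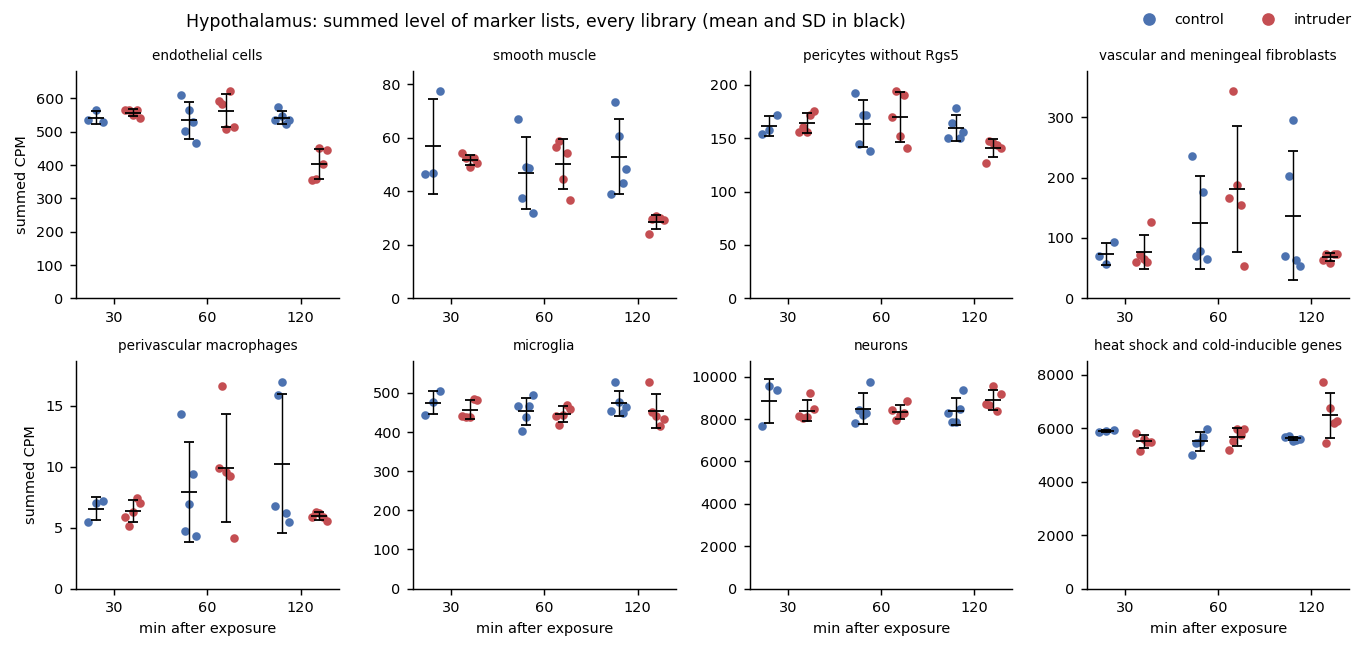
Summed CPM of 8 gene lists in the 28 hypothalamus libraries by time, intruder in red and control in blue, with group mean and SD in black and axes from 0. The 5 intruder libraries at 120 min lie below the other 23 for endothelial and smooth muscle genes, and controls 2 and 3 are the highest fibroblast and macrophage values of the 10 libraries at 120 min.

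Marker lists of other cells of the vessel wall and the brain had no called members. The 17 called genes outside every list were not assigned to cells by these counts. The 11 fibroblast genes had a median log2 fold change of -1.12 with 0 called in edgeR, and this median was 0.14 without controls 2 and 3. Collagen III (Col3a1) was 1.37 to 2.41 CPM in intruder libraries, 6.54 and 8.54 CPM in controls 2 and 3 and 1.64 to 2.44 CPM in the other 3 controls. Perivascular macrophage genes had 0 of 7 called and a median of -0.79, which was -0.0083 without controls 2 and 3. Mrc1, the mannose receptor, was 5.88 and 6.24 CPM in controls 2 and 3 against 1.66 to 2.52 CPM in the other 8 libraries. Blood genes had 0 of 7 called and a median of -0.57. Summed CPM of the blood list was 63.3 to 96.3 in intruder libraries, 83.8 to 147 in controls and 47.3 to 150 in the earlier libraries, and its part in the lower endothelial values was not tested. Microglia, astrocyte, oligodendrocyte and oligodendrocyte precursor lists had 0 called of 50 memberships in all, with medians of -0.05, 0.03, 0.03 and 0.00080.

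**Figure D4:**
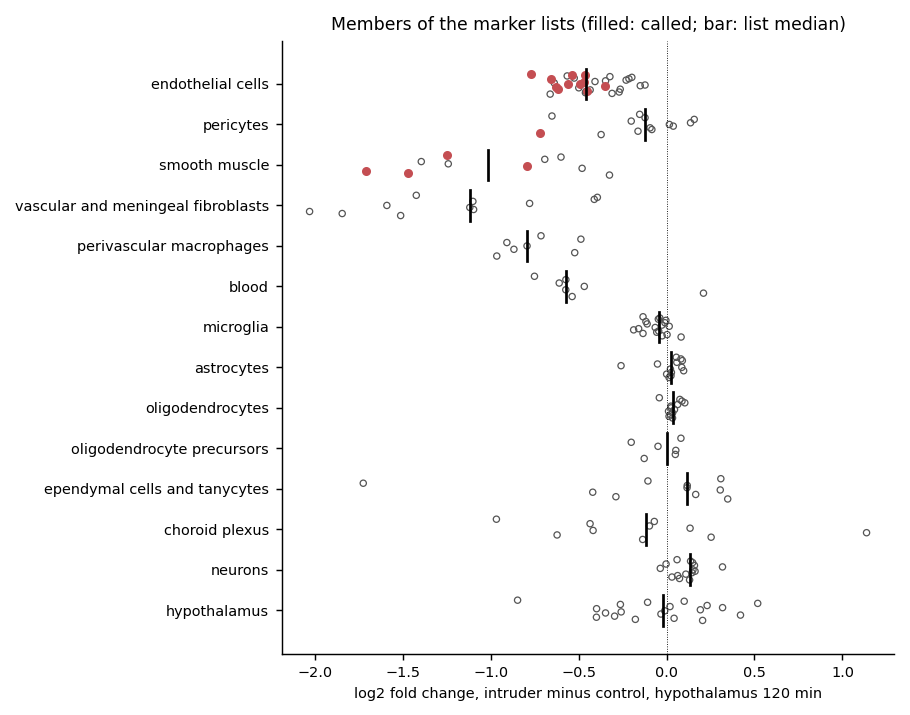
Log2 fold change at 120 min (intruder minus control) of each measured member of 14 marker lists, filled where called, with the list median as a bar. Endothelial and smooth muscle members all lie left of 0, fibroblast members lie left without a call, and astrocyte, oligodendrocyte and microglial medians lie close to 0.

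Among molecules that build and steer the vessel wall, 0 of 30 vessel growth and signalling genes, 0 of 14 basement membrane genes, 0 of 17 Wnt and barrier programme genes and 0 of 24 vasoactive genes were called in edgeR. At an unadjusted p below 0.05 these lists had 7, 5, 5 and 5 lower genes and 2, 0, 0 and 0 higher ones. Fibronectin (Fn1), of the basement membrane, was 16.6 to 31.3 CPM against 28.6 to 75.2 CPM, with 54.7 and 75.2 CPM in controls 2 and 3. Reck, a cofactor of Wnt7 signals in brain endothelium, was 7.17 to 9.65 CPM against 10.2 to 13.9 CPM without overlap (log2 fold change -0.44, edgeR adjusted p = 0.101). Edn3, a vasoactive endothelin, was 2.34 to 3.17 CPM against 3.69 to 4.49 CPM, below all other 23 libraries (log2 fold change -0.53, edgeR adjusted p = 0.0853). DESeq2 called Edn3.

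Neuronal activity and stress genes leaned the other way without a call. Of 20 immediate-early genes, which neurons transcribe within minutes of activity, 17 were positive with a median of 0.15, 0 were called and 7 were higher at an unadjusted p below 0.05. Fos was 18.4, 9.90, 18.9, 14.04 and 17.2 CPM in intruder libraries and 8.98 to 13.2 CPM in controls (log2 fold change 0.54, edgeR adjusted p = 0.246). Intruder 2 lay within the controls. Summed CPM of the list was 291 to 371 in intruder libraries and 277 to 334 in controls, and it was 363 to 713 in the libraries of 30 and 60 min. Egr1, Arc and Npas4 were at 0.36, 0.29 and 0.23, and Arc was at 0.16 without intruder 6 and 0.19 without control 3.

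Heat shock genes, which encode chaperones, had the highest list median. Of 13 heat shock and cold-inducible genes, 11 were positive with a median of 0.25, 0 were called and 10 were higher at an unadjusted p below 0.05. Hspa1b, an inducible chaperone of the HSP70 family, was 51.0, 9.84, 35.6, 12.4 and 33.6 CPM in intruder libraries 1, 2, 3, 4 and 6 and 7.61 to 15.1 CPM in controls. Intruder libraries 1, 3 and 6 were high and libraries 2 and 4 lay within the controls (log2 fold change 1.49 ± 0.401, SE; edgeR adjusted p = 0.171). Hspa1a followed the same libraries, at 45.4, 28.9 and 28.6 CPM in 1, 3 and 6, 11.2 and 13.4 CPM in 2 and 4, and 9.86 to 15.2 CPM in controls. Dnajb1, Hsph1 and Hsp90aa1 were at 0.58, 0.34 and 0.25 with adjusted p of 0.209, 0.176 and 0.19 in edgeR. DESeq2 called 1 gene of the list. The median of this list at 120 min was also positive in the other regions, 0.19 in amygdala and 0.22 in frontal cortex.

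Genes of energy supply and protein synthesis had small positive values without a call. Of 77 tested nuclear genes of oxidative phosphorylation, 77 had a positive log2 fold change, with a median of 0.13 and a range of 0.05 to 0.28, and 0 were called while 18 were higher at an unadjusted p below 0.05. Without controls 2 and 3 the median was 0.06 with 75 of 77 positive. Cytosolic ribosomal protein genes were positive in 78 of 80, with a median of 0.08 and 0 called. The 15 neuronal markers had 13 positive values and a median of 0.13, which was 0.04 without controls 2 and 3, and mitochondrially encoded genes a median of 0.01. Ribosomal protein genes have many pseudogene copies, so their counts are uncertain.

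Hormone and peptide genes gave no call. Of 16 glucocorticoid-responsive genes 0 were called with 8 positive and a median of 0.0028, and of 8 steroid receptor and aromatase genes 0 were called with a median of -0.02. The 20 measured hypothalamic markers had 0 called, 9 positive and a median of -0.02, with single values from -0.85 to 0.52. Oxt, oxytocin, was 400, 230, 206, 261 and 158 CPM in intruder libraries and 267, 121, 129, 237 and 183 CPM in controls, which overlapped (log2 fold change 0.42, edgeR adjusted p = 0.527). Without intruder 1 the log2 fold change of Oxt was 0.19. Scaled among hypothalamus libraries only, summed CPM of the hypothalamic list was 2470 in intruder 1 and 1060 and 1190 in intruder 6 and 3, so the intruder group spread more widely than the controls, at 1450 to 1800. Of the 22 messenger RNA-binding regulators, Elavl1 was called, and Rc3h1 (Roquin-1, which triggers messenger RNA decay) and its cofactor Nufip2 were not, with Nufip2 and Rc3h1 at 0.16 and 0.10 (edgeR adjusted p of 0.33 and 0.402). Without intruder 3, Nufip2 was at 0.10 and Rc3h1 at 0.06.

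The intruder effect was then compared with that at 30 and 60 min, where 0 genes (0%) passed in edgeR and 339 and 393 had an unadjusted p under 0.05. The difference of the effect at 120 min from the mean effect of the earlier times was called for 8 genes, 0.0453% of those tested, all more negative at 120 min. Rgs5 had a difference of -0.83 ± 0.121 (SE; edgeR adjusted p = 0.00476), Cd34 -0.57 ± 0.087 (0.00545) and Abcb1a -0.88 ± 0.145 (0.0124). The other 5 were Ly6c1 at -0.61, Abcg2 at -0.55, Itm2a at -0.63, Myl9 at -0.84 and Olfr558 at -1.89. Of 28 fits that left out 1 library, the call of this difference was lost in 20 for Olfr558, 5 for Myl9, 4 for Itm2a, 2 for Abcg2, 1 for Ly6c1 and 0 for Rgs5, Cd34 and Abcb1a. With the replicate block Rgs5 alone was called. At 30 and 60 min the log2 fold changes of Rgs5 were 0.11 and 0.12, and those of Cd34 were 0.04 and 0.03. All 8 belong to the 34 genes called at 120 min, so they share the 120 min libraries with that comparison.

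The columns of 30 min carry another tag in their headers than those of 60 and 120 min, and hypothalamus at 30 min had 3 controls. Against 30 min alone 0 genes were called in edgeR, with a smallest adjusted p of 0.0899 and 1342 genes at an unadjusted p under 0.05. Against 60 min alone, 4 of the 8 were called (Rgs5, Cd34, Ly6c1 and Itm2a), and without controls 2 and 3 the main difference was called for 3. The endothelial list had a median log2 fold change of 0.04 at 30 min and 0.07 at 60 min, and the smooth muscle list -0.22 and 0.12. Of the 30 lower genes, 11 were negative at 30 min and 4 at 60 min.

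The same 10 animals also gave amygdala and frontal cortex libraries at 120 min, beside 1 more animal per group in frontal cortex, so these are further samples of those animals and not new replicates. Of the 30 lower genes, 28 also had a negative log2 fold change in amygdala, with a median of -0.37, and 11 had one in frontal cortex, with a median of 0.02. Over all genes tested these medians were 0.0009 in amygdala and -0.0017 in frontal cortex. In amygdala, where edgeR called 93 of 17277 genes (0.538%), 4 of the 34 were called in the same direction. These were Ly6c1 (-0.74, edgeR adjusted p = 0.0132), Rgs5 (-0.51, 0.0379), Ly6a (-0.62, 0.0444) and, higher, Dpysl2 (0.26, 0.0342). The endothelial list had a median of -0.36 in amygdala and 0.04 in frontal cortex. The smooth muscle list had a median of 0.22 in amygdala. Its 4 members called in hypothalamus were not called there, with Tagln at 0.44 ± 0.524 (SE), Acta2 at 0.34 ± 0.584, Myl9 at -0.10 ± 0.313 and Pln at -0.14 ± 0.518. The hypothalamus minus amygdala difference was not called for any of these 4, with edgeR adjusted p of 0.46 for Tagln, Acta2 and Pln and 0.471 for Myl9.

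A test of the difference between regions called 0 of 17625 genes (0%) for hypothalamus against amygdala, where 1595 had an unadjusted p under 0.05 and DESeq2 called 0. It also called 0 (0%) for hypothalamus against frontal cortex, where 831 had an unadjusted p under 0.05, with a smallest adjusted p of 0.31 in edgeR, while DESeq2 called 6. For Rgs5 the effect in hypothalamus minus that in frontal cortex was -0.67 ± 0.148 (SE; edgeR adjusted p = 0.314), and for Cd34 it was -0.44 ± 0.134 (0.989). For Pln it was -2.11 ± 0.453 (0.31). A p that misses the threshold does not show that the regions respond alike.

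**Figure D5:**
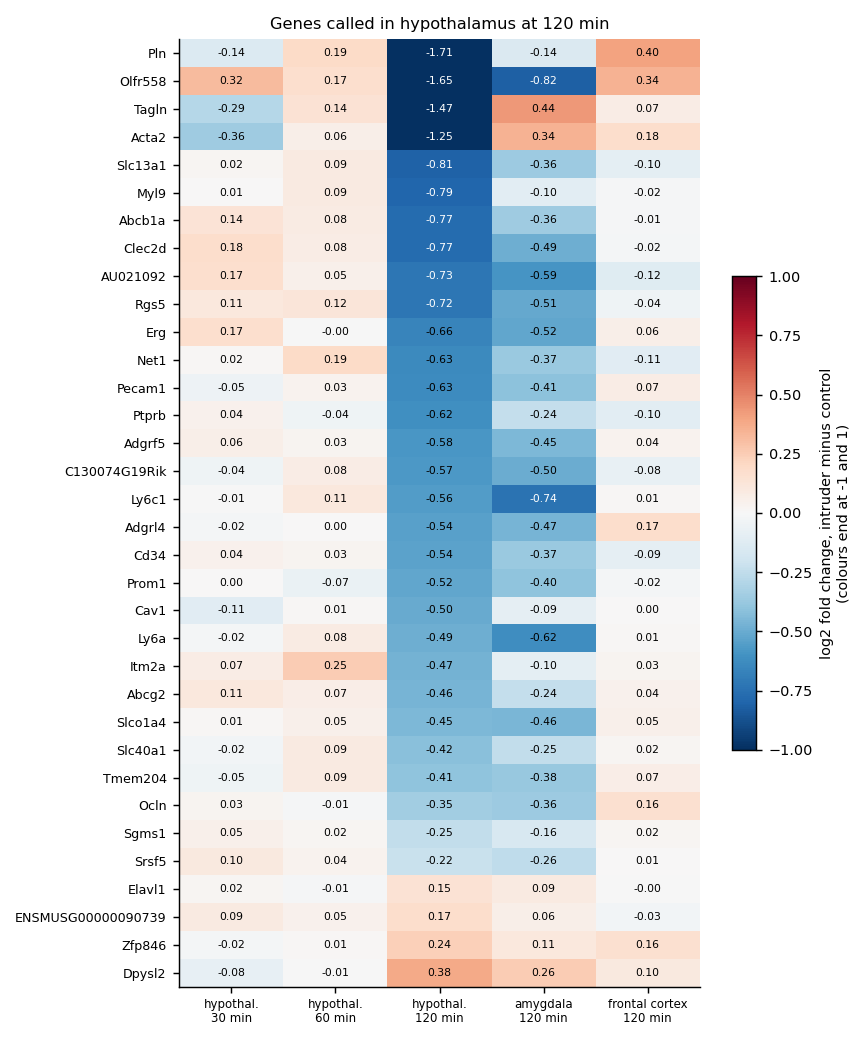
Log2 fold change (intruder minus control) of the 34 genes called in hypothalamus at 120 min, in rows, for hypothalamus at 30, 60 and 120 min and for amygdala and frontal cortex at 120 min, in columns. Blue is lower and red higher in intruder libraries. In amygdala 28 of the 30 genes lower in hypothalamus have negative values, those of Cav1, Itm2a, Myl9 and Pln near 0, and Tagln and Acta2 are positive. The 30 min, 60 min and frontal cortex columns are mostly pale.

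The libraries carried 2 values of the first index of their index pair. All 5 intruder libraries and 3 controls had the first value, and controls 4 and 6 had the other. With only the libraries of the shared index, edgeR called 32 genes, of which 16 were among the 34. These were Cd34, Ly6c1, Ly6a, Itm2a, Abcb1a, Abcg2, Ocln, Rgs5, Myl9, Pln, Tagln, Acta2, Cav1, Net1, Clec2d and C130074G19Rik, and the same 16 were called with the index as a block. The endothelial list then had a median of -0.46 with 30 of 30 negative and 7 called. The fit of the shared index kept controls 1, 2 and 3, so the fibroblast-rich controls 2 and 3 weigh more in it. Its smooth muscle median was -1.14 with 5 called, against -0.65 with 0 called without controls 2 and 3. The fibroblast and macrophage medians were -1.61 and -1.20 in the fit of the shared index.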

How the data were processed

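Per the labels' protocols, total RNA was extracted with Trizol, treated with DNase, made into libraries with TruSeq Stranded mRNA on a robot and read single-end. The deposited values are counts of reads per Ensembl gene. The submitters' processing notes name CASAVA 1.8.2, TopHat2 2.0.8, HTSeq 0.6.1, edgeR 3.2.4, R 3.0.0 and build NCBIM37, and the annotation and strand setting are not given in the sources used here. The 5 entries that name no gene were left out. Of the reads, 10.05% to 12.6% were without a feature, 0.637% to 0.682% were ambiguous and 9.92% to 10.9% were not unique. All 90 columns were matched to a sample. Symbols came from a reference table of gene names by identifier, for 32919 of 37991 identifiers. Genes that overlap or have near-identical copies are uncertain to the extent that reads were left unassigned.

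The 28 hypothalamus libraries were fitted in edgeR 4.0.16 (R 4.3.3) with 1 coefficient for each of 6 groups, TMM scaling, filterByExpr and the two-sided quasi-likelihood test, with Benjamini-Hochberg adjustment over all genes tested and a threshold of 0.05. Regions were compared in 1 fit of the 32 libraries at 120 min, which holds several libraries of 1 animal. DESeq2 1.42.0 and limma 3.58.1 were alternatives. The fitting was tested on simulated data. The labels give each library its own animal but also speak of pooled RNA, so p-values measure the spread between these libraries. Equal replicate numbers name different animals in the intruder and control groups. Correlations of deviations between equal numbers were 0.149, 0.048, -0.314, 0.041 and 0.163. Such values cannot show whether equal numbers shared a day or a batch. No pair of libraries in a group agreed within sampling noise. Depth gives counting error only, since reads carry no molecular identifiers.

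All called genes are named, with members of the lists. The libraries compared, the lists and the tests were chosen with earlier results of these data known, so lists are given as counts and medians with no test. Alternatives that left out libraries with high fibroblast or thalamic sums, or used 60 min alone, were chosen after seeing the data.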

Additional observations from a re-analysis of the deposited data

Results flagged for a closer look

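Single libraries stood far from the other 4 of their group, by the ratio of the gap to the range, in 10 of 118 groups of 5 values examined, where chance gives about 1 in 20. In intruder 1 these were Ptprb, lowest at 12.4 CPM, Dpysl2, highest at 444 CPM, the summed smooth muscle markers, lowest at 24.1 CPM, and the share of reads without a feature, lowest at 10.05%. In control 4 it was Ocln, lowest at 8.85 CPM. In control 6 these were Slco1a4, highest at 56.6 CPM, and the summed thalamic markers, highest at 423 CPM. In control 2 these were the summed astrocyte markers, highest at 5160 CPM, and the summed cortex markers, highest at 614 CPM. In intruder 4 the summed pituitary markers were highest, at 4.36 CPM.

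The intruder effect at 120 min differed from the mean effect at 30 and 60 min for 8 genes by edgeR's interaction contrast. The differences of log2 fold change were -0.83 for Rgs5, -0.57 for Cd34, -0.88 for Abcb1a, -0.61 for Ly6c1, -0.55 for Abcg2, -0.63 for Itm2a, -0.84 for Myl9 and -1.89 for Olfr558. The 30 min columns carry another header tag. Against 60 min alone edgeR called 4 genes and against 30 min alone 0, with a smallest adjusted p of 0.0899 and 1342 genes at an unadjusted p under 0.05.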

How the results depend on the processing

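None of the 34 called genes and none of the other genes named here turned direction under any alternative run. Against 34 calls at 120 min, DESeq2 gave 100 (35 higher, 65 lower, 33 of them among the 34), the fit of the 10 libraries alone 0, and 3 remained without controls 2 and 3 (Cd34, Rgs5 and Ly6c1). Leaving out 1 library gave 19 to 53 calls, with 19 without control 2 or control 3 and 53 without intruder 2, and 14 genes were called each time. Voom, other scalings, other filters and the index block gave 27 to 35. The replicate block gave 6 calls at 120 min (Cd34, Rgs5, Abcb1a, Cav1, Myl9 and Pecam1) and 1 for the difference between times. For that difference, against 8 calls, DESeq2 gave 60, the index block 6 and the fit without controls 2 and 3 gave 3. Against 60 min alone there were 4 and against 30 min alone 0, and leaving out 1 library gave 3 to 23. These were 3, 4 and 14 without controls 2, 3 and 1 at 120 min, 14 and 23 without intruders 2 and 3 at 120 min, and 18 without intruder 5 at 60 min. The region tests stayed at 0 under every alternative, including the animal block, except that DESeq2 called 6 genes against frontal cortex. The cause of these shifts was not tested, including that of the fit of 10 libraries, which estimated the spread from fewer samples. Genes below 1 CPM in every library, Olfr558 and Slc13a1, rest on few reads.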
